A study of Mus musculus with 8 samples.

Results

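The genes described here belong to the BCL2 family, whose proteins hold back or trigger apoptosis at the mitochondrial outer membrane. Survival proteins bind and restrain the pore formers and the BH3-only proteins, and when BH3-only proteins outweigh them, the pore formers open the membrane and release factors that activate caspases. Mice without Bcl2 turn grey because their melanocyte stem cells are lost, which makes this family of interest in the cells measured here. The set holds 8 genes chosen by name for these roles. They are the survival genes Bcl2, Bcl2l1 (which encodes Bcl-xL) and Mcl1, the pore-former genes Bax and Bak1, and the BH3-only genes Bcl2l11 (Bim), Bbc3 (Puma) and Pmaip1 (Noxa). Each was found by its symbol in the array's annotation, keeping the row with the highest mean where a gene had several. Of the 8 genes, 7 were measured among 22180 genes in all, and Bax was not analysed here because no annotated row carried its symbol.

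Cells were sorted from dissociated mouse skin for green fluorescence and absence of surface p75, and their amplified complementary DNA was hybridised to 1 array per sample. The group P21_KO (4 arrays) holds melanocyte stem cells of 21-day-old mice with both genes floxed, B-raf fl/fl and C-raf fl/fl. The group P21_WT (2 arrays) holds melanocyte stem cells of 21-day-old B-raf +/+; C-raf +/+ mice, and P4_WT (2 arrays) holds melanoblasts, the precursors of pigment cells, of B-raf +/+; C-raf +/+ pups aged 4 days. Differences given by age are therefore also between stem cells and melanoblasts, and age and cell stage cannot be told apart. All 3 groups carried the Tyr::Cre and Z/EG transgenes on a mixed C57Bl/6 and 129/Sv background, so both the fluorescent reporter and any loss of the floxed alleles depended on the tyrosinase promoter. The floxed strain was on 129/Sv and the Cre and reporter strains were initially on C57Bl/6, per the labels. The arrays are labelled as biological replicates, but 3 of the 4 P21_KO arrays (replicates 2, 3 and 4) share a number in their descriptions that is left unexplained, and p-values measure the spread between these arrays only.

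Values are log2 intensities, and the number of arrays limits their precision. Braf, a targeted gene, read 6.57, 6.49, 6.30 and 5.66 in P21_KO, against 5.99 and 7.20 in P21_WT and 5.80 and 6.00 in P4_WT. Where its probes lie relative to the deleted stretch is unknown, so these values check the deletion little. The mean of 9 melanocyte markers was 8.53, 8.06, 7.54 and 6.99 in P21_KO, against 9.04 and 8.81 in P21_WT and 9.74 and 9.70 in P4_WT. All groups therefore carried the markers of the labelled lineage, but markers of other cells read high too. Means of 3 Schwann cell genes were 9.82 to 9.92 in P21_KO, and 9.71 and 9.65 in P21_WT. Those of 6 keratinocyte genes were 8.30 to 9.33, and 9.27 and 8.95, in the same order. Both lay above the melanocyte mean on every P21_KO and P21_WT array. In P4_WT both lay below it, at 8.42 and 7.99 (Schwann cell) and 8.29 and 7.37 (keratinocyte). P4_WT replicate 2 stood apart in further lists, with means of 5.65 for 7 immune, 5.97 for 5 endothelial and 5.25 for 5 mast cell genes. On the other 7 arrays these means ran no higher than 3.56, 3.48 and 2.45 in that order. Genes of the hair shaft and inner root sheath (4 genes) averaged 2.42 to 2.65 in P21_KO, 2.52 and 2.60 in P21_WT, and 8.10 and 5.36 in P4_WT. In sorted bulk cells like these, fewer cells of a type and less RNA per cell cannot be told apart.

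The 250 bases before the annotated transcription start are shown for the survival genes and for Bak1, the members whose group means were furthest apart, so that their start regions can be compared. They are RefSeq sequences on build GRCm38.p6, printed 5′ to 3′ along the gene's strand. Capitals mark matches to the 4 short motifs searched on both strands, which were CACGTG (E-box) and CATGTG, to which the melanocyte factor Mitf is known to bind, CCGGAA (the core of ETS factor sites) and GTTTAC (the core of FOXO sites). For Bcl2l1 the table lists 3 starts and the most upstream is shown.
Bcl2 (chr1:106714291-106714540, minus strand): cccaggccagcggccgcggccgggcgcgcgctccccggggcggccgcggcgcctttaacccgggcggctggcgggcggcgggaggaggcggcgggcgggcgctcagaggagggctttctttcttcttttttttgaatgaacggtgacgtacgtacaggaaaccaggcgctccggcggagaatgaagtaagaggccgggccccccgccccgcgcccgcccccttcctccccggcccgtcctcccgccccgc
Bcl2l1 (chr2:152831729-152831978, minus strand): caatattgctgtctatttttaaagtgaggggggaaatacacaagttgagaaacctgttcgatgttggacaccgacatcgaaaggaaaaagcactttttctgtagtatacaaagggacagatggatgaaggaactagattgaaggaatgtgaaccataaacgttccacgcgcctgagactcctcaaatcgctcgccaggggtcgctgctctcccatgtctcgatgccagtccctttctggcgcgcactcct
Mcl1 (chr3:95658471-95658720, plus strand): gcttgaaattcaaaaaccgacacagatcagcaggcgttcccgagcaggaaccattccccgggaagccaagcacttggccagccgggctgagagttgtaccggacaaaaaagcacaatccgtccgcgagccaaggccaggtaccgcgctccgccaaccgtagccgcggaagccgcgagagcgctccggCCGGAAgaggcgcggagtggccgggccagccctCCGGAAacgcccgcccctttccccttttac
Bak1 (chr17:27028628-27028877, minus strand): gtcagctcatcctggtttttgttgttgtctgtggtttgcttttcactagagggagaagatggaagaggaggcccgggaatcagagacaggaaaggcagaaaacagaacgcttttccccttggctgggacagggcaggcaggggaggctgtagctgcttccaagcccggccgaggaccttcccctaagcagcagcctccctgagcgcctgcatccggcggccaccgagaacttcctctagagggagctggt
Mcl1 had 2 CCGGAA matches, beginning 63 and 30 bases before its start, and the windows shown of Bcl2, Bcl2l1 and Bak1 had 0 matches to the 4 motifs. The window of the most downstream Bcl2l1 start had 1 CATGTG and 1 GTTTAC match. Members not shown had matches too: Bcl2l11 to CCGGAA and GTTTAC, Bbc3 to GTTTAC and CACGTG, and Bax to CACGTG. Pmaip1 was not searched. Of all 32851 windows of this length, 6.02% held CACGTG, 12.3% CATGTG, 12.0% CCGGAA and 6.92% GTTTAC. The guanine and cytosine content was 74.8% for Bcl2, 47.6% for the Bcl2l1 window shown, 64.4% for Mcl1 and 58.4% for Bak1. These matches describe letters in a window and do not show binding.

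Bcl2l1 had the clearest pattern of the 7 measured genes. Its protein binds Bax, Bak1 and BH3-only proteins and keeps them inactive. It read 5.90, 6.08, 6.37 and 6.57 in P21_KO, 5.36 and 5.47 in P21_WT, and 4.76 and 4.83 in P4_WT. The 3 groups did not overlap, with P21_KO highest and P4_WT lowest. Bcl2l1 was 2.70-fold higher in P21_KO than in P4_WT (log2 1.43 ± 0.20 SE, limma adjusted p = 0.00499), with all 4 P21_KO arrays above both P4_WT arrays. This was the 1 call among the 7 measured genes, in a comparison in which 7.73% of all genes were called. Both neighbouring steps pointed the same way without passing the test over all genes. P21_KO was 0.82 ± 0.20 (SE) above P21_WT (limma adjusted p = 0.565, unadjusted p = 0.00339), with a 95% interval of 0.35 to 1.28. P21_WT was 0.62 ± 0.23 (SE) above P4_WT (limma adjusted p = 0.304), with a 95% interval of 0.09 to 1.15.

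Bcl2, the gene needed for survival of these stem cells, was not highest in the knockout. It read 7.64, 7.89, 7.47 and 7.04 in P21_KO, against 7.59 and 8.09 in P21_WT and 6.96 and 7.18 in P4_WT. Both P21_WT arrays lay above both P4_WT arrays, while P21_KO overlapped each of the other groups. The mean in P21_WT was 7.84 ± 0.35 and that in P4_WT 7.07 ± 0.16 (SD, n = 2 each), a log2 difference of 0.77 ± 0.29 (SE) that did not pass (limma adjusted p = 0.305). The mean in P21_KO was 7.51 ± 0.36 (SD, n = 4), which differed from P21_WT by -0.33 ± 0.25 (SE, limma adjusted p = 0.896). The 95% interval of that difference ran from -0.91 to 0.24 and so covers both lower and slightly higher levels in the knockout. A second probe set of Bcl2 read 0.38 higher in P21_WT than in P4_WT, but 0.09 higher in P21_KO than in P21_WT, opposite in sign to the first, and neither passed.

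Mcl1, whose short-lived protein restrains Bak1 and Bim, varied least among the survival genes in the probe sets kept. It read 9.36, 9.47, 9.44 and 9.24 in P21_KO, against 9.004 and 9.30 in P21_WT and 8.82 and 8.97 in P4_WT. All P21_KO and P21_WT arrays lay above both P4_WT arrays, and P21_KO overlapped P21_WT. P21_KO was 0.48 ± 0.15 (SE) above P4_WT, short of the threshold (limma adjusted p = 0.106). A second probe set of Mcl1 ranged more widely, from 6.81 to 7.86. This probe set gave 0.69 ± 0.16 (SE) for P21_KO against P4_WT and passed when every single-symbol probe set was tested (limma adjusted p = 0.0339). P21_KO was 0.23 above P21_WT (limma adjusted p = 0.883), and P21_WT was 0.25 above P4_WT (limma adjusted p = 0.653).

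Bak1 encodes a pore former that sits in the mitochondrial outer membrane, and its order was the inverse of that of Bcl2l1. It read 7.19, 6.21, 5.58 and 7.32 in P21_KO, against 7.62 and 7.38 in P21_WT and 8.38 and 8.27 in P4_WT. The groups did not overlap, with P21_KO lowest and P4_WT highest. P21_KO was the most scattered group, with a mean of 6.58 ± 0.83 (SD, n = 4), against 7.50 ± 0.17 in P21_WT and 8.33 ± 0.08 in P4_WT (SD, n = 2 each). P21_KO differed from P4_WT by -1.75 ± 0.45 (SE, 3.37-fold), just outside the threshold (limma adjusted p = 0.0546). That result crossed the threshold in 5 of 18 alternative fits, among them the fits without P21_KO replicate 1 (adjusted p = 0.0478) or replicate 4 (adjusted p = 0.0338). The steps of -0.92 ± 0.45 (SE) between P21_KO and P21_WT and of -0.83 ± 0.52 (SE) between P21_WT and P4_WT did not pass, with limma adjusted p of 0.812 and 0.607.

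The BH3-only genes showed no difference between groups that passed. Bcl2l11, whose protein Bim is marked for destruction by ERK signalling, read 4.70, 5.15, 4.61 and 4.39 in P21_KO, against 4.69 and 5.14 in P21_WT and 4.85 and 5.36 in P4_WT. All 3 groups overlapped, and the log2 difference between P21_KO and P21_WT was -0.20 ± 0.25 (SE), with a 95% interval of -0.79 to 0.38. By age Bcl2l11 differed by -0.19 ± 0.29 (SE) between P21_WT and P4_WT. Bbc3 and Pmaip1, both known as target genes of p53, were dim. Bbc3 ranged from 2.81 to 3.31 and lay below the median of all genes on each of the 8 arrays, and Pmaip1 ranged from 2.86 to 3.44 and lay below it on 7. The differences between P21_KO and P21_WT were 0.11 ± 0.18 (SE) for Bbc3 and -0.01 ± 0.20 (SE) for Pmaip1, and those between P21_WT and P4_WT were 0.04 ± 0.21 and 0.04 ± 0.23 (SE) for the same genes. Differences of genes this dim are compressed by the normalization, which limits what either gene can show.

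**Figure D1:**
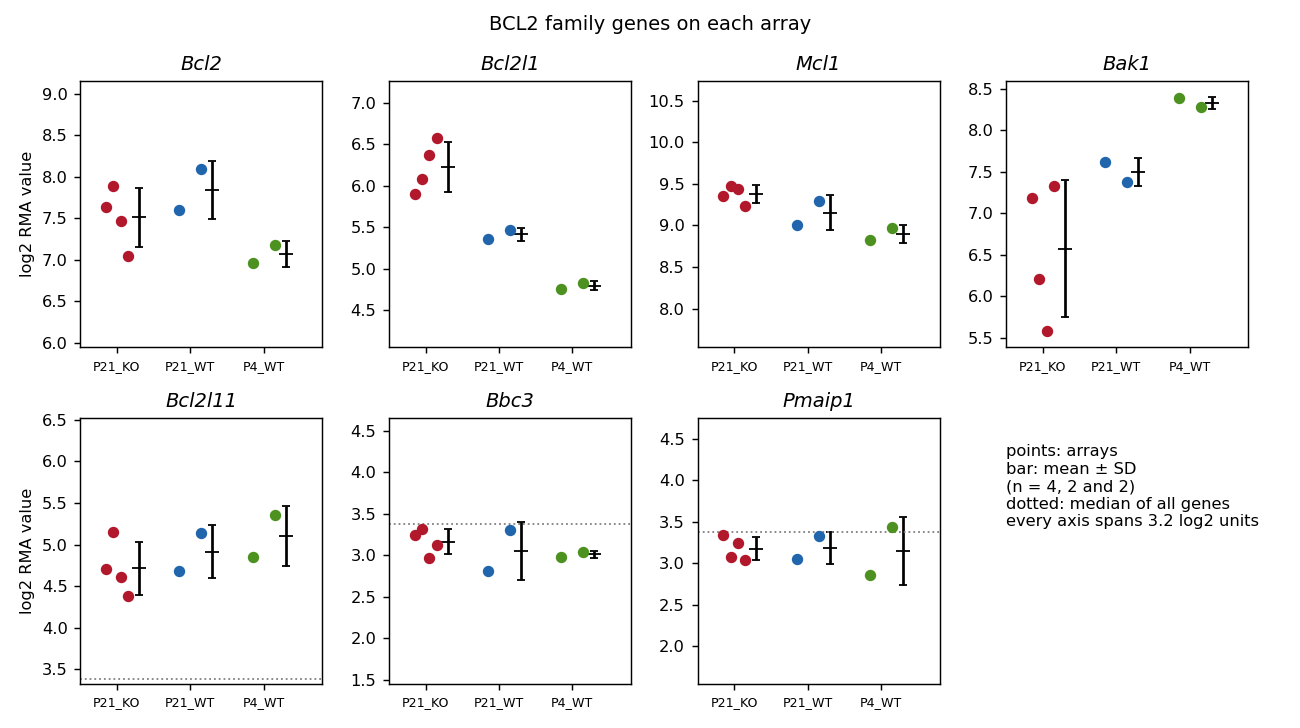
Log2 value of each of the 7 measured genes (vertical axis) on every array, by group (horizontal axis); black bars give the mean ± SD of 4, 2 and 2 arrays, and the dotted line is the median of all genes where it falls in the panel. Bcl2l1 is highest and Bak1 lowest in P21_KO with no overlap between groups, and Bbc3 and Pmaip1 lie near the dotted line.

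By age, 0 of the 7 measured genes passed in P21_WT against P4_WT, where limma called 357 of 22180 genes (1.61%). At an unadjusted p under 0.05 there were 2, Bcl2 and Bcl2l1, against 2800 of all genes. Both P21_WT arrays lay above both P4_WT arrays for 3 of the 7 (21.4% of all genes) and below them for 1, Bak1 (22.1% of all genes). The median log2 difference of the 7 was 0.04, against 0.00 for all genes. By genotype, 0 of the 7 passed in P21_KO against P21_WT, where limma called 0 of 22180 genes (0%), and 1, Bcl2l1, had an unadjusted p under 0.05, against 1447 of all genes. Bcl2l1 was the 1 gene with all P21_KO arrays above P21_WT (7.75% of all genes) and Bak1 the 1 with all below (7.64% of all genes). In P21_KO against P4_WT, 2 of the 7 lay wholly above (14.2% of all genes) and 1 wholly below (15.5% of all genes). That last comparison mixes age, cell stage and genotype and shares its arrays with both others, so its values are no separate support for them.

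**Figure D2:**
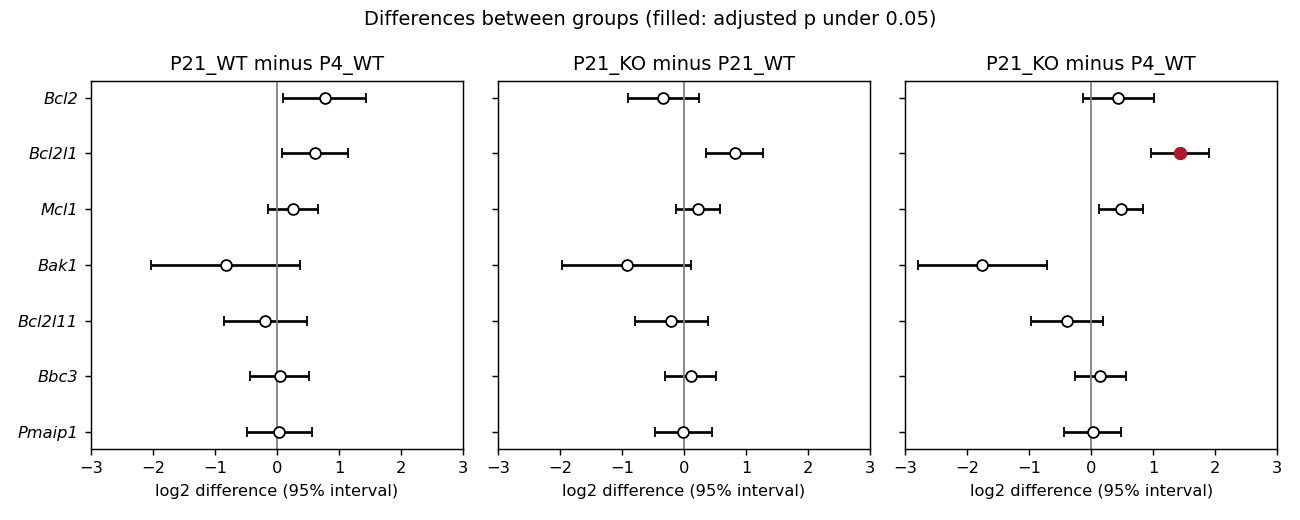
Log2 difference of each gene with its 95% interval from limma, in the 3 comparisons (horizontal axes in log2 units; first-named group minus second). The filled point marks the 1 call, Bcl2l1 in P21_KO against P4_WT, at 1.43, and the Bak1 intervals are the widest in each panel.

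The levels of Bcl2l1 ran in the reverse order of the mean of the melanocyte markers, a pattern noticed after the values were seen. Taking the arrays from the lowest to the highest mean of the 9 melanocyte markers, from 6.99 in P21_KO replicate 4 to 9.74 in P4_WT replicate 1, Bcl2l1 was lower at each step, ending at 4.76. The order held inside each group as well as between groups. Exactly this inverse order was found for 7 of 22180 genes (0.0316%), Bcl2l1 being the 1 among the 7 family genes, and the others include the adhesion gene Nfasc and the phospholipase gene Plcb1. The markers did not all move together. Tyr, the gene of tyrosinase, read 6.36, 5.90, 5.39 and 5.02 in P21_KO, against 7.88 and 7.27 in P21_WT and 9.59 and 9.44 in P4_WT. Sox10, a lineage transcription factor gene shared with glia, read 8.22, 8.32, 7.79 and 8.22 in P21_KO, against 7.99 and 8.14 in P21_WT and 7.23 and 7.43 in P4_WT, so its lowest values were in P4_WT, where Bcl2l1 was also lowest. Mean levels of 3 Schwann cell genes were 9.82 to 9.92 in P21_KO, 9.71 and 9.65 in P21_WT, and 8.42 and 7.99 in P4_WT, and those of 6 keratinocyte genes were 8.30 to 9.33, 9.27 and 8.95, and 8.29 and 7.37 in the same order of groups. The part of these markers in the Bcl2l1 result was not tested. Bak1 fell out of this order through P21_KO replicate 4, which had the lowest markers and the highest Bak1 value (7.32) of its group.

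**Figure D3:**
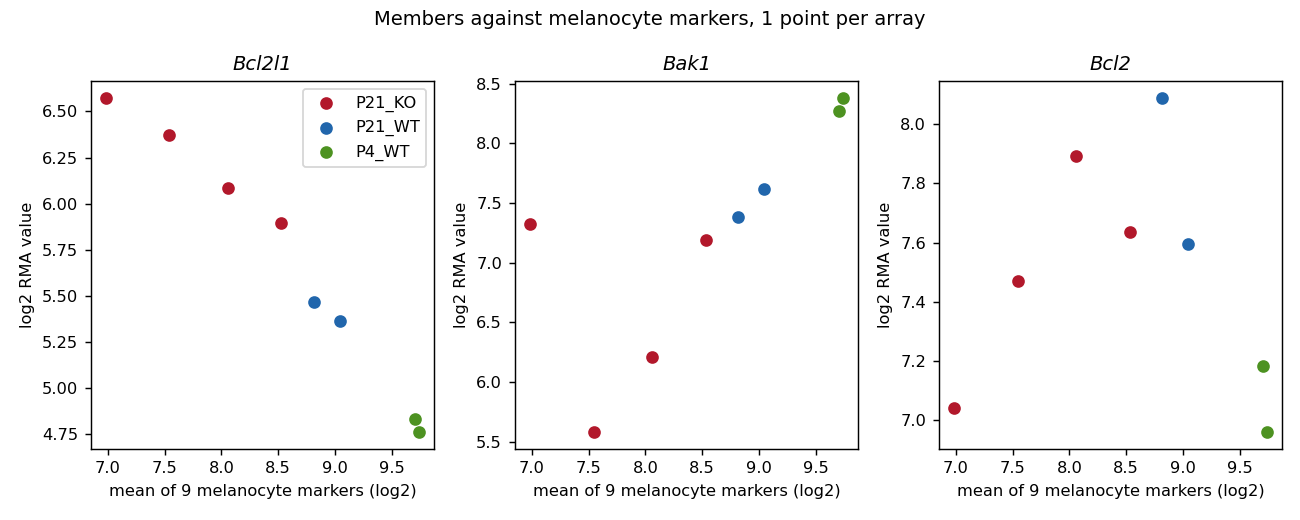
Log2 value of Bcl2l1, Bak1 and Bcl2 (vertical axes) against the mean log2 value of 9 melanocyte markers (horizontal axes), 1 point per array, coloured by group. Bcl2l1 drops at each step as the marker mean goes up, Bak1 does the opposite except for the P21_KO array at 7.32, and Bcl2 has no single direction.

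The genes with the array pattern most like a member were sought by the smallest root mean square difference of log2 values over the 8 arrays, each gene centred on its own mean. The search took in 7195 of the 22180 genes, those that ranged over at least 1 log2 unit across the arrays and were neither unnamed gene models nor small RNA genes. For Bcl2l1 these were the tubulin polymerisation gene Tppp3 (0.164), the microtubule gene Map7d1 (0.182) and Plcb1 (0.187). For Bcl2 they were the anchoring protein gene Akap11 (0.137), the chromatin repressor gene Gatad2b (0.169) and Sos1 (0.175), which encodes an activator of Ras.

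Related genes showed whether the rest of the apoptosis machinery moved in the same comparisons. Among 13 measured relatives of the BCL2 family outside the set, limma called 0 by age and 0 by genotype. In P21_KO against P4_WT it called 1, Bcl2l13, a mitochondrial relative, which was 0.95 ± 0.23 (SE) lower (adjusted p = 0.0404). A count of 1 in 13 is near the background of this comparison, in which 7.73% of all genes were called and 4.68% were called lower. By age, Bcl2l13 differed by -0.88 between P21_WT and P4_WT (limma adjusted p = 0.178). The call on Bcl2l13 in P21_KO against P4_WT was lost in 7 of 18 alternative fits, among them the fits without either P4_WT replicate or without P21_KO replicate 1, 3 or 4 (adjusted p up to 0.241). Bnip3, a BH3-only gene induced by low oxygen, read 5.01, 6.73, 4.94 and 4.91 in P21_KO, against 4.20 and 3.69 in P4_WT. Its log2 difference of 1.45 did not pass (limma adjusted p = 0.130), but did at 1.01 without P21_KO replicate 2, the array that read highest (limma adjusted p = 0.0270). The median difference of the 13 was 0.06 in the first comparison, 0.02 in the second and 0.06 in the third.

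Downstream of the mitochondria, 17 genes of the apoptosome, the caspases and their inhibitors were measured. None passed by age or by genotype, with 5 and 2 at an unadjusted p under 0.05, against 2800 and 1447 of 22180 genes in all. In P21_KO against P4_WT, 3 were lower past the threshold and 0 higher, where 4.68% of all genes were called lower and 3.05% higher. On the negative side were 13 of the 17, against 10492 of 22180 genes in all, and the median was -0.52, against 0.02 for all genes. Casp6, an executioner caspase gene, read 4.06, 3.37, 3.60 and 3.62 in P21_KO, against 5.72 and 4.94 in P4_WT. Casp6 fell by 1.67 ± 0.26 (SE, limma adjusted p = 0.00713) and kept the call in all 18 alternative fits. Apaf1, the scaffold of the apoptosome, fell by 1.16 ± 0.24 (SE, limma adjusted p = 0.0221). The call on Apaf1 was lost without P4_WT replicate 1 (adjusted p = 0.152). Aifm1, a mitochondrial flavoprotein gene, fell by 1.16 ± 0.26 (SE, limma adjusted p = 0.0327). The call on Aifm1 was lost in 8 of 18 alternative fits, among them those without P4_WT replicate 2 or without P21_KO replicate 2, 3 or 4. The fits without either P21_WT replicate, also among them, equal the fit of only the 2 groups compared. By age, Casp6 differed by -1.19 between P21_WT and P4_WT (limma adjusted p = 0.109), and by genotype Aifm1 differed by -0.60 between P21_KO and P21_WT (limma adjusted p = 0.766). Birc3, which encodes an inhibitor of apoptosis, was 1.11 above P4_WT in P21_WT (limma adjusted p = 0.0674) and 0.72 below P21_WT in P21_KO (limma adjusted p = 0.609).

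Of 17 measured upstream regulators, limma called 0 by age and 0 by genotype, and 1 in P21_KO against P4_WT, a share no higher than the 7.73% of all genes called there. The called gene was Ddit3, a stress-induced transcription factor gene known to act on BH3-only genes and on Bcl2. Ddit3 read 8.14, 7.65, 7.87 and 8.39 in P21_KO, against 5.28 and 6.74 in P4_WT, and was 2.00 ± 0.38 (SE) higher (limma adjusted p = 0.0160). The call was lost without P4_WT replicate 1, the lower of that pair (1.27, adjusted p = 0.0569). In P21_WT it read 7.44 and 7.33, a difference of 1.38 from P4_WT that passed only without P4_WT replicate 2 (2.11, limma adjusted p = 0.0290). Mapk8, the gene of the stress kinase JNK1, differed by -0.99 in P21_WT against P4_WT, short of the threshold (limma adjusted p = 0.0551). It passed with array weights (adjusted p = 0.0483) or arrays centred on their medians (adjusted p = 0.0481). By genotype Mapk8 was 0.46 above P21_WT in P21_KO (limma adjusted p = 0.712). Dynll2, a dynein light chain gene, differed by -0.59 ± 0.18 (SE) between P21_KO and P4_WT, with all P21_KO arrays below both P4_WT arrays, and did not pass (limma adjusted p = 0.0897). Dynll1, a gene of the same family, was 0.59 above P21_WT in P21_KO (limma adjusted p = 0.733).

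**Figure D4:**
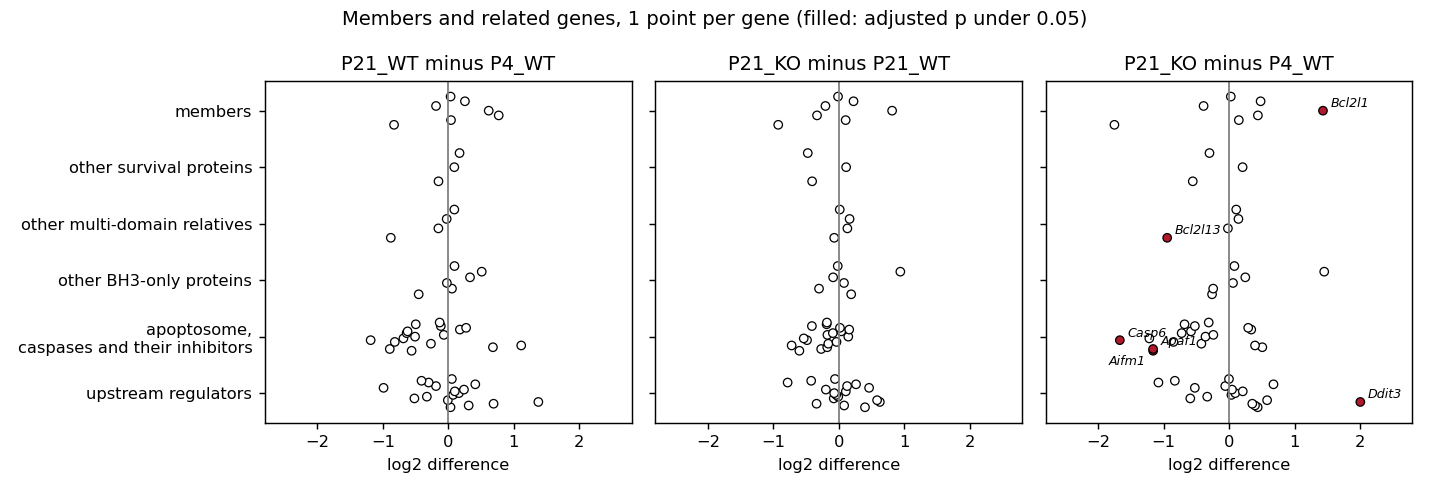
Log2 difference (horizontal axes) of each measured gene of the set and of 5 lists of related genes (rows), 1 point per gene, in the 3 comparisons. Filled points passed limma's test over all genes and all lie in P21_KO against P4_WT: Bcl2l1 and Ddit3 higher, Casp6, Apaf1, Aifm1 and Bcl2l13 lower.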

How the data were processed

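Expression was measured on 8 mouse gene arrays. The deposited values are log2 intensities that the authors made with RMA, and the submitters' processing notes name Affymetrix Expression Console without a version. RMA corrects background, gives all arrays one distribution and compresses differences near the floor. Of 41345 rows, 23521 had 1 gene symbol, and the row with the highest mean was kept for each of 22180 genes, with no filter on dim genes.

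All genes and arrays entered 1 model of the 3 groups in limma 3.58.1 (R 4.3.3), with 5 residual degrees of freedom, two-sided p-values, Benjamini-Hochberg adjustment over all genes and calls at an adjusted p under 0.05. The fit was also run on simulated data with independent noise on every array. Such data lack any sharing between arrays and so cannot show whether the calls made here are sound. The members, lists and tests were chosen with earlier results of these data known. Text names the 7 measured genes, and from related lists the called genes and those among the 2 smallest p per list that were also under 0.05 unadjusted, which narrows the rule set at the start and was decided with the values in view. Of the related genes listed, 4 with shared probe sets (Bcl2a1b, Bcl2a1d, Bcl2l12 and Bnip3l) were not analysed. Promoters came from RefSeq. Alternatives covered the arrays fitted, prior, weights, normalization, dim genes, probe sets, blocks and each array left out. For a comparison that does not use a group of 2 arrays, leaving out either of its arrays equals fitting only the groups compared. The alternatives are therefore not all distinct.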

Additional observations from a re-analysis of the deposited data

How the results depend on the processing

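Over the 7 measured genes, 3 comparisons and up to 18 alternatives each, 348 values kept direction and side of the threshold, 7 newly passed and 17 changed sign, the last all in Bcl2l11, Bbc3 or Pmaip1, none of which was called. The count of genes called stayed at 0 by age and by genotype under every alternative. In P21_KO against P4_WT it was 1 and became 2 at a threshold of 0.10, with the trended robust prior, with array weights, after cyclic loess, among genes above the median mean only (5 of the 7 measured), and with the mean of all probe sets, and ran from 1 to 2 with single arrays left out. Bcl2l1 was called in all 18 alternatives (1.19 to 1.55, limma adjusted p up to 0.0465). Mcl1 passed after cyclic loess (0.59, adjusted p = 0.0474) and with the mean of its probe sets (0.59, adjusted p = 0.0467), and Bak1 with the trended robust prior (-1.75, adjusted p = 0.0371), array weights (-1.85, adjusted p = 0.0476) and without dim genes (-1.75, adjusted p = 0.0251). For Bcl2 the log2 difference with single arrays left out ran from 0.52 to 1.02 by age, from -0.58 to -0.08 by genotype and from 0.31 to 0.59 in P21_KO against P4_WT. Signs turned with single arrays left out within -0.44 to 0.070 (Bcl2l11), -0.20 to 0.29 (Bbc3) and -0.26 to 0.33 (Pmaip1) by age, -0.43 to 0.026, -0.14 to 0.35 and -0.15 to 0.13 in the same order of genes by genotype, and -0.27 to 0.32 for Pmaip1 in P21_KO against P4_WT. Pmaip1 also turned to 0.012 with array weights and 0.010 with median centring by genotype, and to -0.0084 after cyclic loess in P21_KO against P4_WT. The cause of these shifts was not tested.

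Deviations from the group means correlated at -0.037 to 0.006 between same-numbered arrays of replicates 1 and 2. In groups of 2 arrays the 2 deviations mirror each other, so these correlations say little on whether same-numbered arrays were paired. The replicate number was also fitted as a block. Replicates 3 and 4 exist only in P21_KO, so under the block every difference rested on replicates 1 and 2 alone. The replicate block left the counts at 0, 0 and 1 and gave Bcl2 differences of 0.77 by age, -0.08 by genotype and 0.69 in P21_KO against P4_WT, and 0.010 for Bcl2l11 and 0.021 for Pmaip1 by genotype. The calls on Bcl2l13, Apaf1, Aifm1 and Ddit3 were lost under the block (adjusted p of 0.183, 0.0749, 0.189 and 0.134), where limma called 463 genes in all, against 1715. The block itself and the smaller number of P21_KO arrays behind these differences cannot be told apart in these losses.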
